A study of Mus musculus with 22 samples.

Results

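The genes of glycolysis, glycogen metabolism and lactate handling were followed in mouse hearts after chronic psychological stress, with and without an agonist of the cannabinoid receptor CB2R. They are 39 listed gene symbols, matched to the gene names of the deposited expression table, which holds 21898 named genes. The 39 symbols stood on 40 lines of the table, because the symbol Aldoa occurs there for 2 gene identifiers. Of the 39, 38 passed the filter on low counts. The exception was Aldoc, the brain aldolase, which had 0 to 9 reads per library. The second Aldoa line (ENSMUSG00000114515) had 4 to 10 reads per library and also did not pass, so Aldoa stands below for ENSMUSG00000030695.

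Total RNA of whole hearts was sequenced as paired-end libraries from 4 mice of the treatment group, 4 of the case group and 3 of the control group, all male and 6 weeks old at the start. The case mice went through psychological stress for 21 days. The treatment mice went through the same stress and were given JWH133, the CB2R agonist, 2 times a day into the peritoneum at 10 mg/kg, for 3 weeks by the labels. The control mice were normal mice, neither stressed nor given JWH133. The sources used here give neither the strain nor a vehicle injection for the case and control mice, so the agonist and the injections cannot be told apart. Each library is 1 mouse and carries the letter of its column in the table (a to d).

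Glycolysis splits glucose into pyruvate in the cytosol, and lactate dehydrogenase converts pyruvate and lactate into each other. The adult heart draws most of its energy from fatty acids and also burns lactate, and it keeps a store of glycogen that can be broken down quickly. Hexokinase and phosphofructokinase are the main points of control, and fructose-2,6-bisphosphate, made and removed by the PFKFB enzymes, activates phosphofructokinase. Glycogen synthase builds the store and glycogen phosphorylase, switched on by phosphorylase kinase, degrades it. Subunits of the PPP1R3 family bring protein phosphatase 1 to glycogen, where it favours synthesis.

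Total counts were 29410822 to 34412849 per library. The case libraries were not alike. On the first principal component of all genes (42.7% of the variance), the scores of case libraries a, b and c were 60.7, 64.6 and 29.7, while that of case library d was -9.8, next to the treatment libraries (-22.7 to -9.9) and the control libraries (-27.7 to -23.3). The members called with and without case library d, and fold changes that moved by over 1.5 times, are given after the results. All 10 cardiomyocyte markers were detected in every library, with a summed FPKM (reads of a gene scaled to its length and to the total of the library) of 17058 to 19451 in the treatment group, 13271 to 18787 in the case group and 18386 to 19227 in the control group. In FPKM, case libraries a to c, at 15119, 15752 and 13271, were below every treatment and control library. Case library d, at 18787 FPKM, was within the control range. The edgeR test used below also applies a scaling factor per library (TMM), which FPKM leaves out. It was 0.957, 0.927, 1.03 and 1.06 in case libraries a to d and 0.996 to 1.02 in the others. Libraries close to each other in FPKM can change places with these factors, and case libraries b and d do so here. Of the 10 markers, 9 had a lower fitted level in the case than in the control group (1 fell), and all 10 a higher one in the treatment than in the case group (0 rose). Their part in the members' values was not tested. Skeletal muscle markers summed to 24.4 to 36.7, 16.0 to 26.8 and 30.2 to 35.3 FPKM in the same order. In whole hearts, fewer cells of a type and less RNA per cell cannot be told apart.

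The most abundant members were those of the muscle and heart isozymes. Ldhb, the heart form of lactate dehydrogenase, had 717 ± 49.4 FPKM in the treatment group, 688 ± 68.8 in the case group and 630.1 ± 25.9 in the control group (SD, n = 4, 4 and 3). Aldoa, the muscle aldolase, had 781 ± 66.9, 745 ± 52.5 and 628 ± 45.9 FPKM. Eno3, the muscle enolase, had 655 ± 13.7, 508 ± 43.8 and 609 ± 18.9 FPKM. These were the top 3 members in each group. At the low end, Slc16a3, the lactate exporter MCT4, was below 1.1 FPKM in each of the 11 libraries. Several abundant members, Gapdh and Pgk1 among them, have processed pseudogenes that can share their reads, and the sources used here do not say how such reads were counted.

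**Figure D1:**
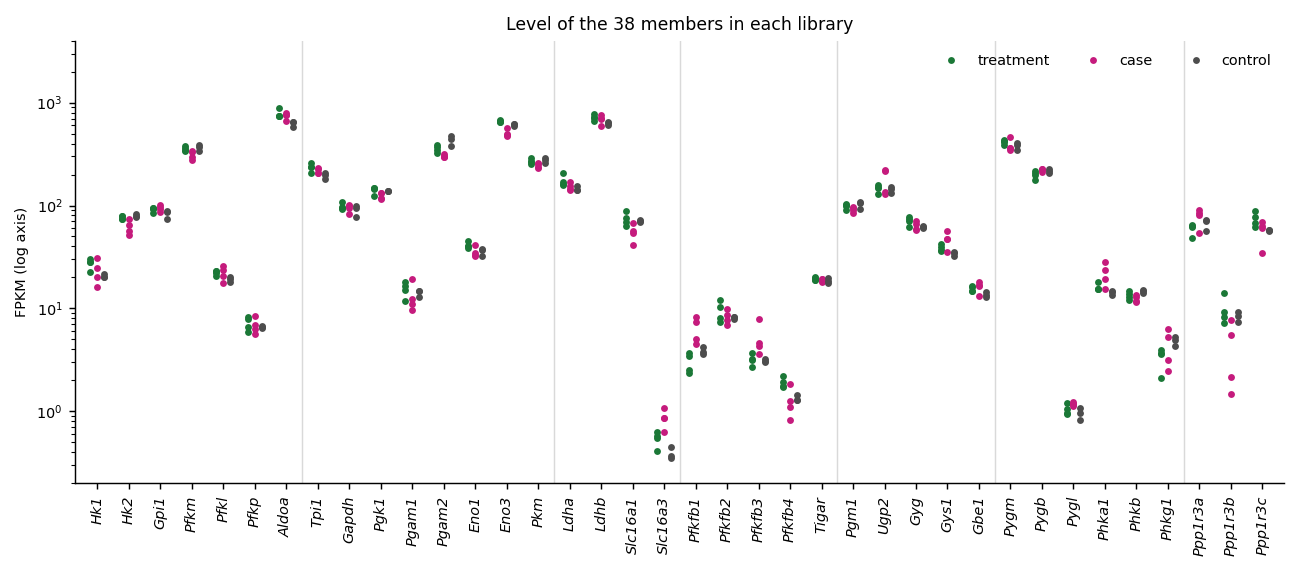
Level of each of the 38 members tested in each library, as FPKM on a log axis, ordered by role (grey lines separate the 7 roles) and, within a gene, treatment, case and control from left to right. Members span from Slc16a3, at 0.349 to 1.07 FPKM, to Aldoa, at 575 to 881 FPKM, and Ppp1r3b has the most spread case libraries, with a coefficient of variation of 69.8%, before Phkg1 with 42.3% and Pfkfb3 with 38.1%.

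In the enolase, phosphoglycerate mutase and phosphofructokinase families, the muscle form made up over 90% of the FPKM in every library. Eno3 was 93.6% to 94.3% of the enolase FPKM in the treatment libraries, 92.3% to 94.3% in the case libraries and 94.3% to 94.8% in the control libraries. Pgam2, the muscle phosphoglycerate mutase, was 95.6% to 96.5%, 94.3% to 96.9% and 96.7% to 96.9% of its family in the same order. Pfkm, the muscle phosphofructokinase, was 91.6% to 93.0%, 90.6% to 92.9% and 93.2% to 93.9% of the 3 phosphofructokinases. Hexokinase was less one-sided. Hk1, the hexokinase found in most tissues, made up 22.0% to 27.8% of the hexokinase FPKM in the treatment libraries, 23.8% to 29.4% in the case libraries and 19.6% to 21.3% in the control libraries, and the rest was Hk2, the insulin-responsive form of muscle and heart. Every treatment and case library was thus above every control library in the share of Hk1. Lactate dehydrogenase was mostly Ldhb, with Ldha, the form of tissues that produce lactate, at 17.8% to 20.99%, 16.6% to 22.0% and 18.2% to 19.4%. Glycogen phosphorylase was the muscle form Pygm at 66.2% to 70.3%, 61.1% to 67.3% and 62.7% to 64.1%, with most of the rest from the brain form Pygb. The treatment libraries did not overlap with the control libraries in the share of Pygm, and the case libraries overlapped with both. These shares are a description of each library and were not tested.

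The words rose and fell are used for members with an adjusted p under 0.05 in edgeR's quasi-likelihood test (Benjamini-Hochberg, over the 14050 genes tested). In the case group against the control group, 6 of the 38 members passed, a share of 15.8% where 15.8% of all genes tested passed. Of the 6, 3 were higher, beside 8.21% of all genes, and 3 lower, beside 7.55%. In the treatment group against the case group, 5 passed, a share of 13.2% beside 10.9% of all genes. Of the 5, 2 were higher, beside 4.33% of all genes, and 3 lower, beside 6.57%. Between the treatment and the control group, edgeR called 0 members, beside 1.08% of all genes (0.292% higher and 0.79% lower), and 6 members had an unadjusted p under 0.05. DESeq2 and both limma fits also called 0 there, and edgeR on the libraries of those groups alone called 2 (Hk1 and Pfkfb4). The shares were thus near those of all genes in each comparison. The median log2 fold change over the members was 0.04, 0.07 and 0.10 in these 3 comparisons, beside 0.01 over all genes tested in each. Comparisons that share libraries are not independent of each other, and the first and second share the case libraries.

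**Figure D2:**
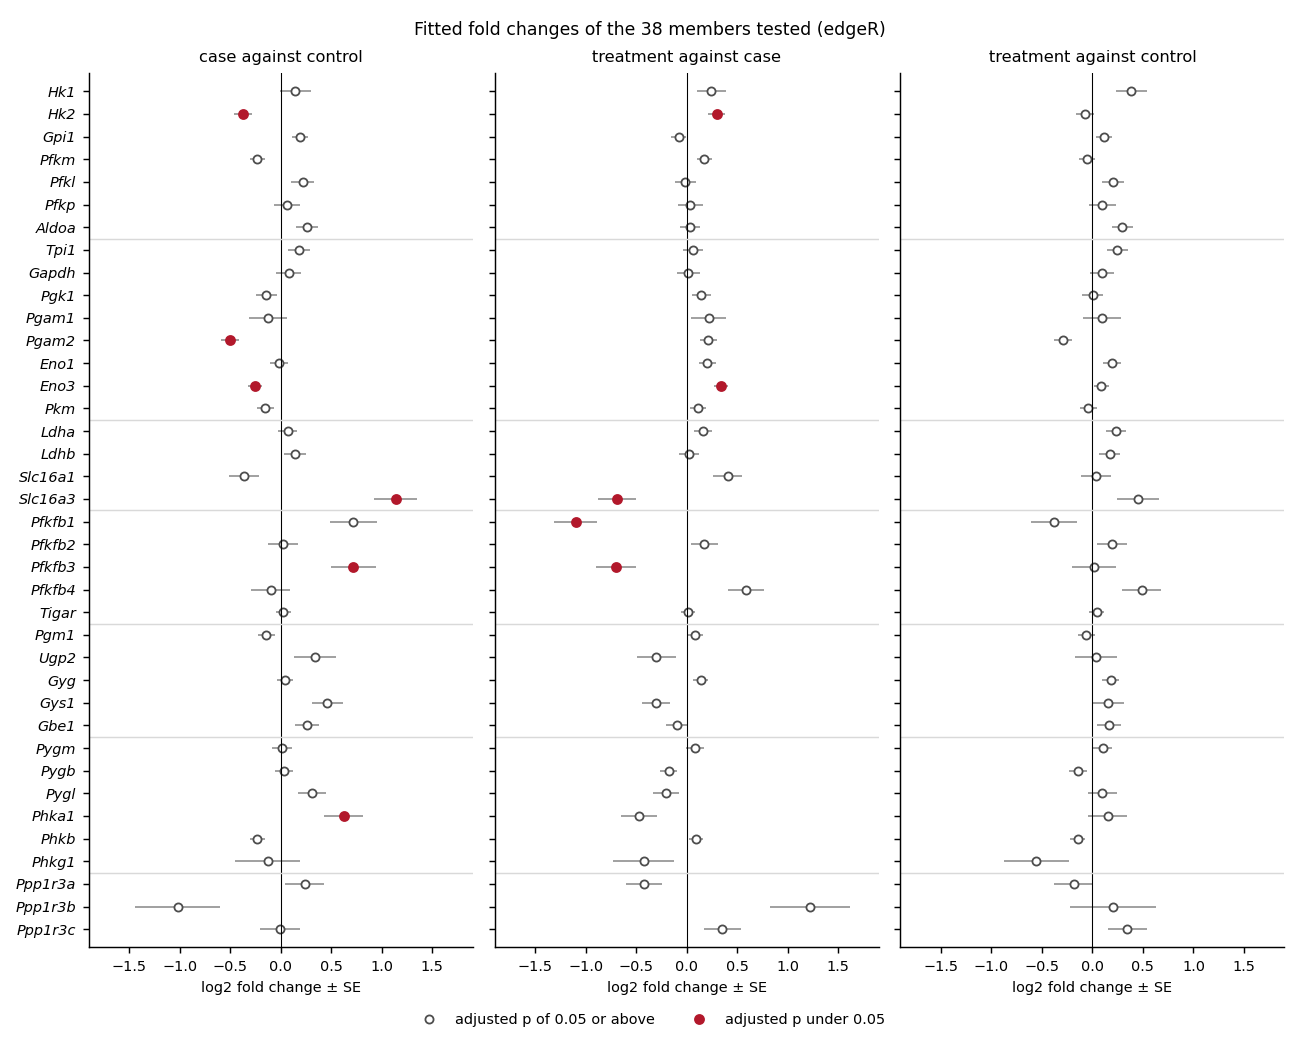
Fitted log2 fold change of each of the 38 members tested, with its standard error, in the 3 comparisons; filled points have an edgeR adjusted p under 0.05. Filled points number 6, 5 and 0, with Slc16a3 at 1.14 and -0.69 and Pfkfb1 at -1.10 among them, while Ppp1r3b has wide error bars and open points.

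The members Hk2, Eno3, Slc16a3 and Pfkfb3 passed in both comparisons that use the case libraries, and the 250 bases before a RefSeq start of each are shown for this reason. They come from RefSeq on GRCm38.p6, where 38 of the 39 symbols had an entry and Ppp1r3b had none. The gene coordinates given below are from GENCODE, whose starts differ: the window of Slc16a3 lies inside its GENCODE gene, that of Pfkfb3 overlaps the first bases of its gene, and those of Hk2 and Eno3 lie before it. Capitals mark the letters ACGTG, or CACGT where the motif lies on the other strand. ACGTG is the core of the element that hypoxia-inducible factors bind, and genes of glycolysis are among their known targets.
Hk2 (chr6:82774455-82774704, minus strand): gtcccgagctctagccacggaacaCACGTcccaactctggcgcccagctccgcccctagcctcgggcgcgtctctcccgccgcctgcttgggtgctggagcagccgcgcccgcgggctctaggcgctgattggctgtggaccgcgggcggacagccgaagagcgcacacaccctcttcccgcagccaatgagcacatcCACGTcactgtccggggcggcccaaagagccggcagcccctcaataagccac
Eno3 (chr11:70656926-70657175, plus strand): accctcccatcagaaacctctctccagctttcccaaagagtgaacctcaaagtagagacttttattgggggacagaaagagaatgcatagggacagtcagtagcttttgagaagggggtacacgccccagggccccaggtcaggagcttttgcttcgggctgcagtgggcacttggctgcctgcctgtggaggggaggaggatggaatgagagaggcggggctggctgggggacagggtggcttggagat
Slc16a3 (chr11:120948817-120949066, plus strand): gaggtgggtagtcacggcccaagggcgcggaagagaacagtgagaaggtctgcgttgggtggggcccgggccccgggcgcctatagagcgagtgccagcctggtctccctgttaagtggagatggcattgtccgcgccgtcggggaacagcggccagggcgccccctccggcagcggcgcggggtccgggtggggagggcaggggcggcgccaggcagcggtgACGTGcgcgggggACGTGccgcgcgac
Pfkfb3 (chr2:11553930-11554179, minus strand, 1 of 2 starts in the table): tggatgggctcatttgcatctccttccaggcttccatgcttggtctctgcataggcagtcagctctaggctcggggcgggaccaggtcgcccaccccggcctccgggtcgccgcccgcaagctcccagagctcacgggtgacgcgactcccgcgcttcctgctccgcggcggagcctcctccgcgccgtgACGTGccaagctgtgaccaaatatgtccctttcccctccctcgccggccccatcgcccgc
The windows of Hk2, Slc16a3 and Pfkfb3 held 2, 2 and 1 matches to ACGTG on either strand, and that of Eno3 held 0. Of all 32851 windows of this length, 16.6% held the letters, and of the 56 windows of the members 21 did (37.5%), from 17 of 38 members. The E-box letters CANNTG also match where ACGTG lies inside CACGTG. They were found in 66.2% of all windows, in 67.9% of the members' windows and in those of Eno3 and Pfkfb3. The letters AGAACA resemble what 1 unit of the glucocorticoid receptor binds. They were found in 16.1% of all windows, in 19.6% of the members' windows and in that of Slc16a3. The site of MEF2, a factor known from muscle genes, was found in 2.92% of all windows, in 5.36% of the members' windows and in 0 of these 4. These motifs were chosen after the values had been seen, and a match is a description of the letters and not a binding site.

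The steps from glucose to the splitting of fructose-1,6-bisphosphate had 1 call. Hk2 (chr6:82725025-82774454, GRCm38), which phosphorylates glucose on entry, had 51.2, 56.5, 64.5 and 73.5 FPKM in case libraries a to d, against 79.4, 77.5 and 82.7 in control libraries a to c. Each case library was below each control library, and case library d was the nearest to them. Hk2 fell by 0.38 on the log2 scale in the case group (SE 0.09, edgeR adjusted p = 0.0173). The treatment libraries had 78.8, 73.9, 74.3 and 79.5 FPKM, each above each case library, though treatment library b and case library d (73.9 and 73.5 FPKM) were almost level. Hk2 rose by 0.30 in the treatment group against the case group (SE 0.08, edgeR adjusted p = 0.0411). Against the control group the difference was -0.08 (SE 0.09, edgeR adjusted p = 0.834).

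Hk1 had 30.4, 28.4, 28.0 and 22.4 FPKM in the treatment libraries, 16.0, 20.3, 24.5 and 30.7 in the case libraries and 21.5, 20.4 and 20.1 in the control libraries. The treatment libraries all lay above the control libraries, and the case libraries lay on both sides of them, with case library d as high as the treatment libraries. Hk1 did not pass in any comparison with all libraries (log2 fold change 0.39, SE 0.16, edgeR adjusted p = 0.363 for treatment against control). In edgeR on the treatment and control libraries alone, Hk1 passed, at 0.39 (SE 0.09, edgeR adjusted p = 0.0311). Red cells contain this hexokinase, and the erythroid markers summed to 799 to 1719 FPKM in the treatment group, 609 to 1069 in the case group and 225 to 268 in the control group. None of the 8 erythroid markers in the table was at 0 in any library, 5 of 8 rose in the treatment group and 6 of 8 in the case group, each against the control group. Their part in the levels of Hk1 was not tested.

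Pfkm had 279, 296, 341 and 334 FPKM in the case libraries, against 390.3, 341 and 373 in the control libraries, which overlap at case library c. The log2 fold change was -0.23 (SE 0.08, edgeR adjusted p = 0.0588). Its treatment libraries had 342, 379.9, 364 and 350.4 FPKM, each above each case library. Gpi1, which turns glucose-6-phosphate into fructose-6-phosphate, Pfkl and Pfkp, the liver and platelet phosphofructokinases, and Aldoa did not pass in any comparison. Their log2 fold changes lay between 0.06 and 0.26 in the case group against the control group. Aldoa had 881, 750.0, 748 and 744 FPKM in the treatment libraries, 763, 758, 789 and 668 in the case libraries and 655, 575 and 654 in the control libraries. In FPKM each stressed library, treated or not, was above each control library. Case library d was the nearest to them, and with the TMM factors of the test it lies among the control libraries.

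Lower glycolysis, from triose phosphate to pyruvate, had 2 calls, both of muscle isozymes. Pgam2 (chr11:5801640-5803733), which moves the phosphate of 3-phosphoglycerate, had 297, 294, 302 and 317 FPKM in the case libraries, against 471, 381 and 444 in the control libraries. The case libraries were close together, case library d included, and all below the control libraries. Pgam2 fell by 0.50 on the log2 scale (SE 0.09, edgeR adjusted p = 0.00516). It also passed in each of the 11 fits that left out 1 library, with adjusted p of at most 0.0385. The treatment libraries had 389.7, 369, 323 and 348 FPKM, between the other groups except that treatment library a overlapped the control group. The difference of the treatment group was 0.21 against the case group (SE 0.08, edgeR adjusted p = 0.113) and -0.29 against the control group (SE 0.09, edgeR adjusted p = 0.21), and neither passed.

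Eno3 (chr11:70657202-70662513), which makes phosphoenolpyruvate, had 474, 487, 572 and 498 FPKM in the case libraries, against 621, 588 and 619 in the control libraries. All 4 case libraries were below the control libraries, and case library c came nearest. Eno3 fell by 0.26 on the log2 scale (SE 0.07, edgeR adjusted p = 0.0375). The treatment libraries had 661, 672, 646 and 642 FPKM, above every case and every control library. Eno3 rose by 0.34 in the treatment group against the case group (SE 0.07, edgeR adjusted p = 0.0158), and its difference from the control group was 0.09 (SE 0.07, edgeR adjusted p = 0.741). Pgam2 and Eno3 are also abundant in skeletal muscle. Of its 6 markers tested, 5 had a lower fitted level in the case than in the control group, and 1 of these fell. In the treatment group against the case group 4 of 6 had a higher fitted level, and 1 rose. Between 1 and 5 of the 11 skeletal muscle markers listed were at 0 in each library, and the part of such cells in Pgam2 and Eno3 was not tested. Hk2, Pgam2 and Eno3 are also genes of cardiomyocytes, whose markers had their lowest summed FPKM in case libraries a to c, as given above. In case library d, where the summed markers were within the control range, Hk2, Pgam2 and Eno3 were also below each control library. The part of cardiomyocytes in their values was not tested.

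The other 6 members of lower glycolysis did not pass in any comparison. Gapdh, often used as a reference gene, had 107, 96.7, 94.9 and 93.5 FPKM in the treatment libraries, 101, 98.9, 95.3 and 83.0 in the case libraries and 98.9, 78.1 and 95.3 in the control libraries, and the groups overlapped. Pgk1, which makes the first ATP of the pathway, had 132, 132, 116 and 119 FPKM in the case libraries, against 139.9, 139.7 and 139 in the control libraries. The groups did not overlap in FPKM, and its log2 fold change was -0.14 (SE 0.10, edgeR adjusted p = 0.362). Pkm, the pyruvate kinase of muscle and most other tissues, had 237, 251, 233 and 257 FPKM in the case libraries, against 287, 257 and 279 in the control libraries, and a log2 fold change of -0.16 (SE 0.08, edgeR adjusted p = 0.222). Tpi1, which interconverts the triose phosphates, Pgam1 and Eno1 completed the group, with log2 fold changes of 0.18, -0.13 and -0.02 in the case group against the control group. The summed FPKM of the 8 members was 1722 to 1921 in the treatment libraries, 1511 to 1572 in the case libraries and 1668 to 1880.0 in the control libraries. In this sum the case libraries lay below both other groups. The sum includes Pgam2 and Eno3, which fell in the case group, and does not show that the other members were lower. Tpi1 and Gapdh had log2 fold changes of 0.18 and 0.08 in the case group against the control group.

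**Figure D3:**
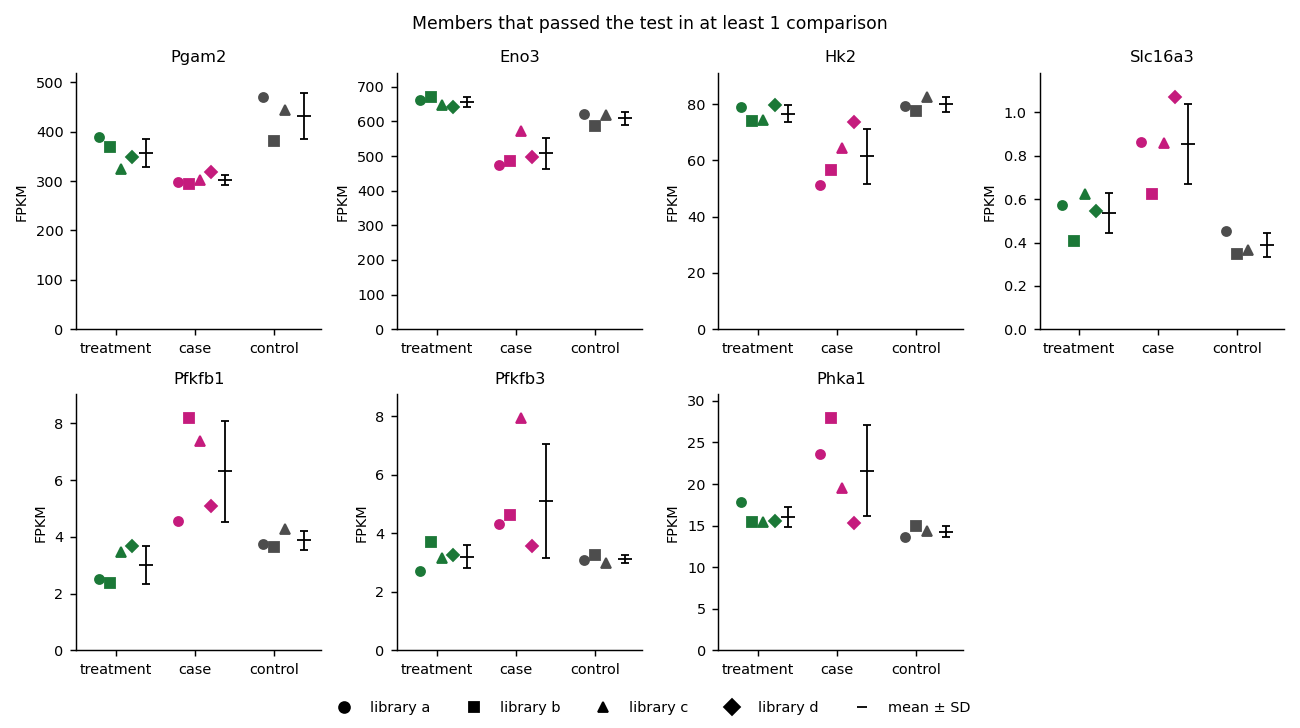
FPKM in each library of the 7 members that passed in at least 1 comparison, for the treatment, case and control groups from left to right, with mean and SD beside the points and 1 symbol per library letter. The case libraries lie apart from the control libraries in Pgam2 (294 to 317 against 381 to 471) and Slc16a3 (0.623 to 1.07 against 0.349 to 0.451), while Pfkfb3 and Phka1 are spread widely within the case group.

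Of the genes for lactate, the exporter Slc16a3 rose in the case group and the dehydrogenases did not pass. Slc16a3 (chr11:120948480-120960868), a monocarboxylate transporter that exports lactate from glycolytic cells, had 155, 114, 136 and 168 reads in the case libraries, against 76, 55 and 62 in the control libraries. This is 0.864, 0.623, 0.859 and 1.07 FPKM in the case group, against 0.451, 0.349 and 0.363 in the control group, with case library d the highest of all. Slc16a3 rose by 1.14 on the log2 scale (SE 0.21, edgeR adjusted p = 0.00612), the largest fold change among the members called in that comparison. It passed in each of the 11 fits that left out 1 library, with adjusted p of at most 0.0364.

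In the treatment libraries Slc16a3 had 94, 64, 101 and 86 reads, or 0.571, 0.409, 0.623 and 0.544 FPKM, all but 1 above the control libraries. Treatment library c was level with case library b, the lowest of the case group, to the digits shown. Slc16a3 fell by 0.69 against the case group (SE 0.19, edgeR adjusted p = 0.0407) and differed by 0.45 from the control group (SE 0.21, edgeR adjusted p = 0.453). This transporter is also found in white blood cells. The neutrophil markers summed to 2.54 to 21.8 FPKM in the treatment group, 6.29 to 15.0 in the case group and 1.01 to 1.23 in the control group, where 4 of the 8 were at 0 in each library. Macrophage markers summed to 165 to 251, 176 to 305 and 174 to 194 FPKM in the same order, with 0 of 9 at 0 in any library. Of the tested markers, 3 of 6 for neutrophils and 2 of 9 for macrophages rose in the case group against the control group. In the treatment group against the case group, 0 of 6 neutrophil markers passed, while 3 of 9 macrophage markers fell and 7 of 9 had a fold change below 0, down to -1.40 on the log2 scale. Their part in the levels of Slc16a3 was not tested.

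Slc16a1, or MCT1, the main lactate transporter of heart muscle, was far more abundant and did not pass. It had 88.1, 75.1, 63.7 and 68.5 FPKM in the treatment libraries, 57.2, 53.9, 41.0 and 67.0 in the case libraries and 71.5, 69.0 and 73.0 in the control libraries. The 4 case libraries were below the control libraries, and case library d overlapped the treatment libraries. Its log2 fold change was -0.37 in the case group against the control group (SE 0.15, edgeR adjusted p = 0.113) and 0.40 in the treatment group against the case group (SE 0.14, edgeR adjusted p = 0.0768). Ldha had 207, 161, 158 and 171 FPKM in the treatment libraries, 146, 143, 155 and 168 in the case libraries and 156, 141 and 142 in the control libraries. In FPKM, Ldha and Ldhb were higher in each treatment library than in each control library. With the TMM factors of the test, Ldha in treatment library c lies within the control range. The log2 fold changes of Ldha and Ldhb were 0.23 (SE 0.10, edgeR adjusted p = 0.397) and 0.17 (SE 0.11, edgeR adjusted p = 0.612).

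The PFKFB enzymes, which set the level of fructose-2,6-bisphosphate, differed among themselves. Pfkfb1 (chrX:150588229-150643878), the form of liver and muscle, had 2.52, 2.38, 3.48 and 3.69 FPKM in the treatment libraries, against 4.55, 8.20, 7.39 and 5.07 in the case libraries. The groups did not overlap. Pfkfb1 fell by 1.10 on the log2 scale in the treatment group (SE 0.21, edgeR adjusted p = 0.0144), the largest fold change of a member called in that comparison, and passed in each of the 11 fits that left out 1 library (adjusted p at most 0.0469). In the control libraries it had 3.75, 3.64 and 4.26 FPKM, below each case library. The difference of the case group from the control group was 0.72 (SE 0.23, edgeR adjusted p = 0.0552) and did not pass.

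Pfkfb3 (chr2:11471433-11554077), the inducible form with strong kinase activity, had 4.30, 4.61, 7.95 and 3.57 FPKM in the case libraries, against 3.10, 3.25 and 3.00 in the control libraries. Case library c stood far above the others and case library d was close to the control libraries. Pfkfb3 rose by 0.72 in the case group (SE 0.22, edgeR adjusted p = 0.0455). The treatment libraries had 2.71, 3.69, 3.15 and 3.25 FPKM, of which 1 overlapped the case libraries, and Pfkfb3 fell by 0.70 against the case group (SE 0.20, edgeR adjusted p = 0.046). Without case library c the log2 fold changes were 0.46 in the case group against the control group and -0.43 in the treatment group against the case group (edgeR adjusted p = 0.0614 and 0.0631).

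Pfkfb2, the heart form, and Pfkfb4, the testis form, did not pass by edgeR with all libraries. Pfkfb2 was the most abundant of the family, with 7.45 to 12.0 FPKM in the treatment libraries, 6.95 to 9.94 in the case libraries and 7.96 to 8.29 in the control libraries. Its share of the summed FPKM of the family was 47.7% to 59.4% in the treatment libraries, 35.9% to 44.9% in the case libraries and 48.8% to 50.2% in the control libraries, and each case library was below every other library. Pfkfb4 had 1.72, 2.18, 1.77 and 1.91 FPKM in the treatment libraries, 1.09, 0.823, 1.25 and 1.85 in the case libraries and 1.28, 1.29 and 1.45 in the control libraries, and its log2 fold change in the treatment group against the case group was 0.59 (SE 0.18, edgeR adjusted p = 0.0555). Tigar, a phosphatase that lowers fructose-2,6-bisphosphate, was the steadiest of the 5, at 18.7 to 20.2 FPKM in the treatment libraries, 18.2 to 19.3 in the case libraries and 17.7 to 19.6 in the control libraries.

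Glycogen synthesis had 0 calls among 5 members in each comparison by edgeR, with 1, 0 and 0 at an unadjusted p under 0.05 in the case against the control, the treatment against the case and the treatment against the control group. Gys1, the muscle glycogen synthase, had 42.2, 39.3, 36.7 and 36.2 FPKM in the treatment libraries, 47.2, 56.1, 46.9 and 35.2 in the case libraries and 34.6, 32.4 and 35.6 in the control libraries. Case libraries a to c were above every other library and case library d was within the control range. The log2 fold change was 0.46 in the case group against the control group (SE 0.16, edgeR adjusted p = 0.065). DESeq2 called Gys1 there and no other member of this group in any comparison. Ugp2, which makes UDP-glucose, the unit that is added to glycogen, had 221, 216, 129.5 and 136 FPKM in the case libraries, against 143, 132 and 151 in the control libraries. Case libraries a and b were far above c and d, which were near the control libraries, and the log2 fold change was 0.33 (SE 0.21, edgeR adjusted p = 0.293). Pgm1, which turns glucose-6-phosphate into glucose-1-phosphate, Gyg, the primer protein glycogenin, and Gbe1, the branching enzyme, had log2 fold changes of -0.14, 0.04 and 0.26 in the case group against the control group.

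Glycogen breakdown had 1 call among 6 members. Phka1 (chrX:102513975-102644246), the muscle form of a regulatory subunit of phosphorylase kinase, had 23.6, 28.0, 19.5 and 15.3 FPKM in the case libraries, against 13.6, 14.9 and 14.4 in the control libraries. Case library b was the highest, and case library d was just above control library b in FPKM. With the TMM factors of the test, case library d lies among the control libraries. Phka1 rose by 0.62 (SE 0.19, edgeR adjusted p = 0.0475). The treatment libraries had 17.9, 15.4, 15.4 and 15.5 FPKM, all above the control libraries, with a log2 fold change of -0.47 against the case group (SE 0.18, edgeR adjusted p = 0.0981).

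The other subunits of phosphorylase kinase did not pass in any comparison. Phkb, the beta subunit, had 11.9, 11.4, 13.4 and 12.8 FPKM in the case libraries, against 14.7, 15.0 and 14.1 in the control libraries, without overlap. Its log2 fold change was -0.24 (SE 0.07, edgeR adjusted p = 0.0503), just short of the threshold. Phkg1, the catalytic subunit of muscle, had 3.62, 3.66, 2.12 and 3.95 FPKM in the treatment libraries, 5.32, 6.34, 3.12 and 2.45 in the case libraries and 5.30, 4.35 and 4.89 in the control libraries. Each treatment library was below each control library, while case libraries a and b were above c and d. The phosphorylases did not pass. Pygm had 390.0 to 431 FPKM in the treatment libraries, 348 to 464 in the case libraries and 349 to 409 in the control libraries, and Pygb had 176 to 214, 213 to 226 and 207 to 228 in the same order. The liver form Pygl was at 1.13 to 1.24 FPKM in the case libraries, against 0.822 to 1.08 in the control libraries.

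The 3 glycogen-targeting subunits of protein phosphatase 1 did not pass by edgeR with all libraries, and 1 of them had the highest coefficient of variation of the 38 members tested in the case group. Ppp1r3b, a subunit known from liver and muscle, had 307, 460, 1025 and 1420 reads in case libraries a to d, against 1829, 1566 and 1469 in the control libraries. In FPKM these were 1.46, 2.15, 5.54 and 7.76 in the case group, against 9.28, 8.50 and 7.37 in the control group and beside 9.30, 8.34, 7.23 and 14.1 in the treatment group. Case libraries a and b were far below every control library, c was below them by less, and d was within their range. The log2 fold change was -1.02 in the case group against the control group (SE 0.42, edgeR adjusted p = 0.121) and 1.22 in the treatment group against the case group (SE 0.40, edgeR adjusted p = 0.0667). Without case library d these were -1.45 and 1.65 (edgeR adjusted p = 0.0120 and 0.00540). That library was the case library nearest to the other groups, so these fits are no separate support for a change. With all libraries, DESeq2 called Ppp1r3b in the treatment group against the case group (DESeq2 adjusted p = 0.0446).

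Ppp1r3a, the muscle subunit, had 64.3, 48.4, 61.5 and 63.0 FPKM in the treatment libraries, 90.4, 84.7, 81.0 and 53.6 in the case libraries and 56.8, 72.2 and 71.1 in the control libraries. Case libraries a to c were above every other library, the reverse of their position in Ppp1r3b, and case library d was among the lowest. The log2 fold change of Ppp1r3a was 0.24 in the case group against the control group (SE 0.19, edgeR adjusted p = 0.42) and -0.42 in the treatment group against the case group (SE 0.18, edgeR adjusted p = 0.129). Ppp1r3c, a subunit found in many tissues, had 77.2, 89.1, 68.2 and 62.1 FPKM in the treatment libraries, 34.5, 69.4, 63.7 and 59.8 in the case libraries and 57.9, 56.2 and 58.4 in the control libraries, and every treatment library was above every control library. Of the summed FPKM of the 3, Ppp1r3b made up 5.28% to 10.1% in the treatment libraries, 1.16% to 6.40% in the case libraries and 5.38% to 7.48% in the control libraries.

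**Figure D4:**
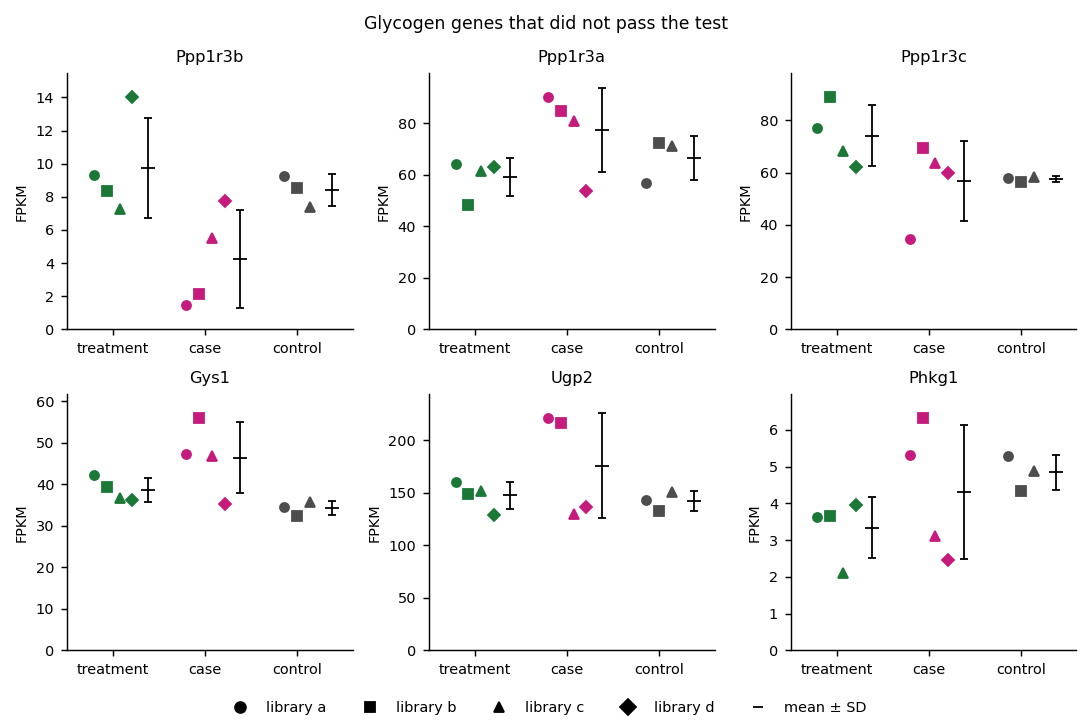
FPKM in each library of 6 glycogen genes that did not pass by edgeR with all libraries in any comparison, for the treatment, case and control groups from left to right, with mean and SD beside the points and 1 symbol per library letter. In the case group, libraries a and b (Ugp2 at 221 and 216, Ppp1r3b at 1.46 and 2.15) lie apart from c and d, and for Gys1 and Ppp1r3a library d lies apart from a, b and c.

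The case libraries were more spread over the members than the other groups. The median coefficient of variation over the members was 8.59% in the treatment group, 13.4% in the case group and 5.86% in the control group. Measured as the log2 ratio of FPKM to the control mean, the median absolute departure of the 38 members was 0.28, 0.29, 0.24 and 0.17 in case libraries a to d, beside 0.25, 0.15, 0.16 and 0.11 in treatment libraries a to d. Departures beyond 0.5 were seen for 8, 9, 7 and 3 members in case libraries a to d, and for 3, 4, 2 and 2 in treatment libraries a to d. Case library d thus had as few as treatment library a. The control libraries had 0, but the mean is their own.

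**Figure D5:**
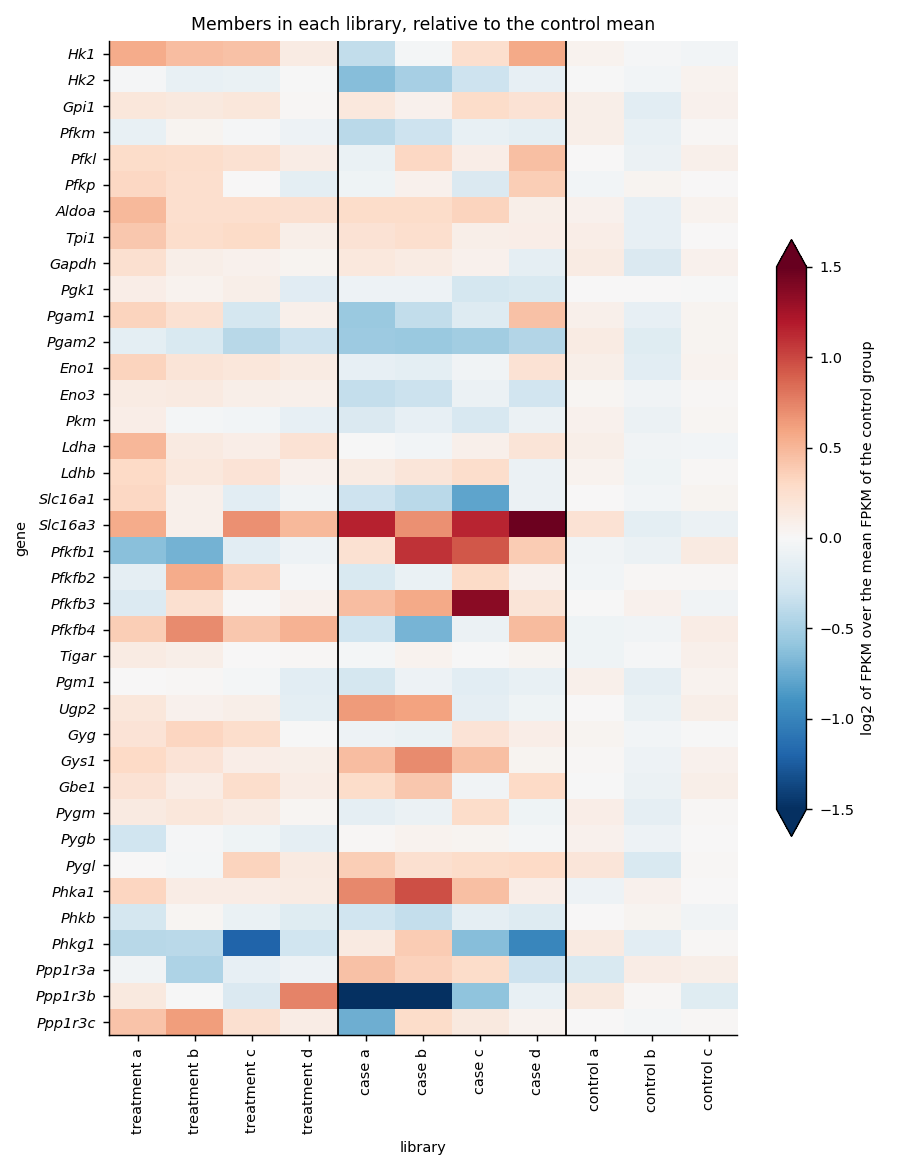
Log2 of each member's FPKM over the mean FPKM of the control group, in 4 treatment, 4 case and 3 control libraries from left to right, with genes in rows and the colour scale ending at 1.5 in each direction. Pgam2 is below the control mean in each case and treatment library, Slc16a3 is above it in each of them, and Ppp1r3b reaches -2.52 in case library a.

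Case library d was the case library nearest to the other groups on the first principal component of all genes. Without it, calls over all genes went from 2215 to 4479 in the case against the control group. In the treatment against the case group they went from 1531 to 4392. The calls added without it are thus no separate support for these members. Without case library d, 15 of the 38 members passed in the case group against the control group, beside 32% of all genes tested, 8 higher and 7 lower. The members that passed in addition to those named above were Aldoa, Ldhb, Pfkfb1, Gys1 and Ppp1r3a, which rose, and Pfkm, Slc16a1, Phkb and Ppp1r3b, which fell. In the treatment group against the case group 15 members also passed, beside 31.4% of all genes, 8 higher and 7 lower. Those added were Hk1, Pgam1, Eno1, Slc16a1, Pfkfb4 and Ppp1r3b, which rose, and Gys1, Pygb, Phka1 and Ppp1r3a, which fell. Gys1 rose by 0.60 in the case group (edgeR adjusted p = 0.00129) and fell by 0.44 in the treatment group against it (edgeR adjusted p = 0.00569) in these fits. Of the other members added, 4 moved by over 1.5 times. In the case group against the control group, Ldhb had a log2 fold change of 0.23 without case library d and 0.14 with it, and Ppp1r3a 0.40 without and 0.24 with it (edgeR adjusted p without it 0.0348 and 0.0328). In the treatment group against the case group, Hk1 had 0.38 without and 0.24 with it, and Pgam1 0.42 without and 0.22 with it (edgeR adjusted p without it 0.0350 and 0.0316). The 6 calls of the case group and the 5 of the treatment group against it were among these 15 each time.

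Several of the calls made with all libraries missed the threshold when 1 library was left out, most with a fold change close to that of all libraries. Hk2 missed in the case against the control group without control library a, b or c, where its log2 fold change was -0.37, -0.40 and -0.35 (edgeR adjusted p = 0.0665, 0.0520 and 0.0774). Calls over all genes also fell to 704, 794 and 746 in these 3 fits, against 2215 with all libraries. Eno3, Pfkfb3 and Phka1 passed there in 3, 1 and 2 of the 11 fits that left out 1 library, with adjusted p up to 0.143, 0.137 and 0.147 in the rest. Over the 11 fits their log2 fold changes ranged from -0.29 to -0.22, from 0.46 to 0.88 and from 0.44 to 0.78. Without case library d all 3 passed. In the treatment group against the case group, Eno3 missed without case library a or treatment library b, at 0.33 and 0.34 (edgeR adjusted p = 0.0525 and 0.0507). Hk2 and Pfkfb3 passed there in 1 of the 11 fits each, that without case library d, and Slc16a3 in 2, those without case library b or d, with adjusted p up to 0.111, 0.108 and 0.106 in the rest. Their log2 fold changes ranged from 0.24 to 0.36 for Hk2, from -0.86 to -0.43 for Pfkfb3 and from -0.79 to -0.57 for Slc16a3. The fold changes of Pfkfb3 moved by over 1.5 times only without case library c.

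Counted by library, 13 of 38 members did not overlap between the case and the control group (34.2%), beside 25% of all genes tested. Of these, 6 were higher, beside 13.7% of all genes, and 7 lower, beside 11.3%. Between the treatment and the case group 6 members did not overlap (15.8%), beside 14.3% of all genes. Hk2, Pfkm, Pgam2 and Eno3 were higher, beside 6.1% of all genes, and Slc16a3 and Pfkfb1 were lower, beside 8.22%. Between the treatment and the control group 13 members did not overlap (34.2%), beside 19.3% of all genes. Of these, 12 were higher in each treatment library (31.6%), beside 10.2% of all genes. They were Hk1, Pfkl, Aldoa, Eno1, Eno3, Ldha, Ldhb, Pfkfb4, Gys1, Gbe1, Phka1 and Ppp1r3c, and Phkg1 was lower, beside 9.05% of all genes. The log2 fold changes of these 12 lay between 0.09 and 0.49, and none passed the test. These counts rest on FPKM, which leaves out the TMM factors of the test. Members whose groups lie close can change sides with these factors. Aldoa, Pgk1, Pkm, Pfkm and Phka1 do so between the case and the control group, and Ldha between the treatment and the control group. The counts are a description without a test.

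Other genes of the same pathways were looked up from 5 lists of 52 genes outside the members, of which 43 were tested. In the case group against the control group, 6 rose and 1 fell. Slc2a1, the glucose transporter GLUT1, had 16.6, 15.9, 13.5 and 9.26 FPKM in the case libraries, against 6.73, 6.00 and 6.78 in the control libraries, and rose by 1.11 (SE 0.20, edgeR adjusted p = 0.00467). Case library d was the nearest to the control libraries. Emb, a chaperone of monocarboxylate transporters, rose by 1.70 (SE 0.45, edgeR adjusted p = 0.0271), and Pcx, the pyruvate carboxylase, rose by 0.70 (SE 0.16, edgeR adjusted p = 0.0157).

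In the treatment group against the case group, 1 of these 43 rose and 3 fell. Slc2a1 had 7.61, 6.59, 7.38 and 7.20 FPKM in the treatment libraries, all below the case libraries, and fell by 0.98 (SE 0.18, edgeR adjusted p = 0.0109). Pcx fell by 0.54 (SE 0.15, edgeR adjusted p = 0.0399) and Pgm5, a phosphoglucomutase-like protein of muscle attachment sites without known enzyme activity, rose by 0.34 (SE 0.09, edgeR adjusted p = 0.0349). The share of the lists that passed, 7, 4 and 1 of 43 in the 3 comparisons, stood beside the 15.8%, 10.9% and 1.08% of all genes.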

How the data were processed

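Whole-heart total RNA of 11 mice was analysed; 11 further single-end samples in the labels are not analysed here. The authors deposited 1 table with raw counts of reads per gene and a length per gene; its 11 further columns of values per library were not used. Cutadapt, HISAT2, TopHat2 and mm10 stand in the submitters' processing notes; the counting program, annotation and versions are not given in the sources. Columns were tied to groups through the study's supplementary table, the control columns being those left. Column letters are not tied to the labels' replicate numbers. A table line without a gene was left out (1 line). No 2 libraries of a group agreed within sampling noise (lowest chi-square per degree of freedom 7.48). Coordinates are from GENCODE M21 on GRCm38, since 0 members had the same start and end in the table.

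Counts were tested with edgeR 4.0.16 (R 4.3.3; low-count filter, TMM, 1 model with a mean per group over the 11 libraries, quasi-likelihood test, Benjamini-Hochberg adjustment over 14050 genes). Levels and sums are FPKM computed from the deposited counts, lengths and column totals, without the TMM factors (Python 3.11.15). The SE is the fold change divided by the square root of F. Alternatives were DESeq2's size factors, no filter on low counts, DESeq2 1.42.0, limma 3.58.1 on log2(FPKM + 1) and on log2(FPKM + 0.1), only the groups compared, and each library left out. Every member called in any comparison was named with its values, and pathway genes only where called, at most the 5 largest per comparison; some of these are not reported here. The members and lists were chosen with earlier results of these data known. At 55 to 168 reads, as for Slc16a3, counting error is part of the spread.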

Additional observations from a re-analysis of the deposited data

Results flagged for a closer look

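In groups of 4 libraries, a library was noted where its gap to the nearest other, divided by the range of the group, exceeded Dixon's critical value for 4 samples. Of 76 such groups (38 members in the treatment and the case group), 4 held such a library, and chance marks about 1 in 20. Aldoa was highest in treatment library a, at 881 FPKM, where the others had 744 to 750.0. Phka1 was highest in the same library, at 17.9 FPKM, where the others had 15.4 to 15.5. Pgk1 was lowest in treatment library d, at 124 FPKM, where the others had 145 to 149. Pygm was highest in case library c, at 464 FPKM, where the others had 348 to 365.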

How the results depend on the processing

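The counts of members that passed depended on the test and on single libraries. In the case against the control group, the treatment against the case group and the treatment against the control group, 6, 5 and 0 members and 2215, 1531 and 152 genes passed. DESeq2 called 10, 8 and 0 members, and 2559 genes in the treatment against the case group and 416 in the treatment against the control group. Its added members were Pfkm, Pfkfb1, Gys1 and Phkb in the case against the control group, and Slc16a1, Pfkfb4 and Ppp1r3b in the treatment against the case group. Limma on log2(FPKM + 1) called 2 members in the treatment against the case group, and limma on log2(FPKM + 0.1) called 2 members in the case against the control group and 2 members with 867 genes in the treatment against the case group. With only the libraries of the groups compared, 2, 0 and 2 members and 858, 270 and 816 genes passed. The size factors of DESeq2 and the absence of a filter on low counts kept each count within 1.5 times. Leaving out each library in turn gave 2 to 15, 1 to 15 and 0 to 0 members, and 704 to 4479, 373 to 4392 and 21 to 347 genes, the highest counts above 0 each time without case library d. The cause of these shifts was not tested.

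Of the calls, Pgam2 and Slc16a3 in the case against the control group passed in 17 of 17 alternatives, and Pfkfb1 and Eno3 in the treatment against the case group in 16 and 14. No called fold change turned its direction. Over the 38 members, 47 of 1938 alternative fits turned the direction of a fold change that had not passed, in 19 members, and none of them passed. All but those of Pfkl under limma came from leaving out 1 library. In the case against the control group these ranged from -0.088 to 0.034 for Eno1, from -0.021 to 0.16 for Gapdh, from -0.056 to 0.088 for Pfkfb2, from -0.31 to 0.038 for Pfkfb4, from -0.021 to 0.16 for Pfkp, from -0.41 to 0.083 for Phkg1, from -0.16 to 0.17 for Ppp1r3c, from -0.0029 to 0.081 for Pygb, from -0.064 to 0.074 for Pygm and from -0.013 to 0.067 for Tigar. In the treatment against the case group these ranged from -0.039 to 0.076 for Aldoa, from -0.067 to 0.070 for Gapdh, from -0.063 to 0.076 for Ldhb, from -0.089 to 0.060 for Pfkl, from -0.055 to 0.12 for Pfkp and from -0.0100 to 0.060 for Tigar. In the treatment against the control group these ranged from -0.0021 to 0.17 for Gapdh, from -0.042 to 0.088 for Pfkfb3, from -0.027 to 0.055 for Pgk1, from -0.039 to 0.32 for Ppp1r3b, from -0.00017 to 0.20 for Pygl, from -0.064 to 0.10 for Slc16a1 and from -0.017 to 0.086 for Ugp2. For Pfkl in the treatment against the case group the value was 0.024 in limma on log2(FPKM + 1) and 0.026 on log2(FPKM + 0.1). No paired analysis was possible because the columns carry none of the replicate numbers of the labels.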
